A study of Mus musculus with 2 samples.

Results

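A group of 10 antioxidant genes that the transcription factor NRF2 (encoded by Nfe2l2) is known to control, Nqo1, Gclc, Gclm, Txnrd1, Srxn1, Gpx2, Prdx1, Slc7a11, Cat and G6pdx, were followed through the cells of mouse small intestine. They were taken by symbol from the deposited gene lists, and all 10 were found among 56980 genes. At rest, the adaptor KEAP1 hands NRF2 over for degradation, and oxidants or electrophiles that modify KEAP1 let NRF2 reach antioxidant response elements in DNA. Its targets make glutathione, run the thioredoxin system, remove peroxides and supply NADPH, and in the intestine they are known for defence against dietary electrophiles and luminal oxidants. BACH1, a repressor, competes with NRF2 at the same elements.

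The series held 1 library labelled model and 1 labelled control, each a suspension of mouse small intestine profiled by droplet-based 10x Genomics sequencing. The series title names simulated microgravity and radiation as the insult studied and a product called CB001, but the labels do not say what the model animals received, nor the strain, genotype, age or number of animals or the stretch of intestine. Both suspensions came from tissue freed of Peyer's patches and mesentery, by an EDTA step followed by collagenase A with DNase I. With 1 library per group, no difference between them has a replicate check and no test was made.

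The model library held 76701215 unique molecular identifiers (UMIs, each marking 1 captured RNA molecule) in 11468 barcodes, of which 7913 were kept, and the control library held 61370270 UMIs in 10259 barcodes, of which 7329 were kept. Median depth was 3761 UMIs per kept cell in the model library and 3636 in the control library, and the median mitochondrial share was 5.38% and 10.8%. The markers of small intestine were present: enterocyte-like clusters passed 4 to 12 of 12 markers, and crypt-like cells 10 of 10. Epithelial cells numbered 3059 in the model library and 3308 in the control library, immune cells 3838 and 2253, and stromal cells 197 and 254. A cluster of low RNA content with 793 model and 327 control cells, and another with 26 model and 1187 control cells, stayed unnamed and are in no class; genes of the villus tip list, Ada and Pmp22, were among the leading genes of the second. Class names rest on transcripts alone and mean cells like the named type. One epithelial cluster led by Car4, Gsdmc4 and Krt19 passed 8 epithelial markers without matching a cell type, and is called the Car4-led cluster.

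The promoters of 3 genes are shown because their levels ran in different directions along the villus: Srxn1, whose product repairs over-oxidised peroxiredoxins, Prdx1, which encodes one of those peroxiredoxins, and Gpx2, which encodes the glutathione peroxidase of the gut lining. Each window runs 5′ to 3′ on the gene's strand from 250 bases before to 50 bases after the annotated start (RefSeq, GRCm38.p6): chr2:152105274-152105573 on the plus strand for Srxn1, chr4:116685349-116685648 on the plus strand for Prdx1 and chr12:76795505-76795804 on the minus strand for Gpx2. Capitals mark matches on either strand to the antioxidant response element cores TGACNNNGC and TGAGNNNGC.
Srxn1: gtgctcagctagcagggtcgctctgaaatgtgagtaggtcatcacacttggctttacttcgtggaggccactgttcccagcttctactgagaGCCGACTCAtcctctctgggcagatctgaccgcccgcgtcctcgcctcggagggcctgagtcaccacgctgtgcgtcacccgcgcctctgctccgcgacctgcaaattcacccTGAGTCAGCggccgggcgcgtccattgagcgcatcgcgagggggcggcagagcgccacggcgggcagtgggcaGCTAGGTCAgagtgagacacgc
Prdx1: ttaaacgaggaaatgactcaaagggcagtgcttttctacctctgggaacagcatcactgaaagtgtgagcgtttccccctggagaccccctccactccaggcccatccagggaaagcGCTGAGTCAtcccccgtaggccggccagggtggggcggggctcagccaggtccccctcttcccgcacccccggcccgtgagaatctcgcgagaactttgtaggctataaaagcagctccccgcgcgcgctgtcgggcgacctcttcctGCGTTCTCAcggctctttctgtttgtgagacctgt
Gpx2: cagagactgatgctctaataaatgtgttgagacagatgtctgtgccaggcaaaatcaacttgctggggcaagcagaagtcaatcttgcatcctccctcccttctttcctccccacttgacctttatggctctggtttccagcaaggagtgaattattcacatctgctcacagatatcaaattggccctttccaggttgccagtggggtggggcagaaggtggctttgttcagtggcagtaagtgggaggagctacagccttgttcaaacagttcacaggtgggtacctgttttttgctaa
The Srxn1 window held 3 matches, the Prdx1 window 2 and the Gpx2 window 0. In each of the Srxn1 and Prdx1 windows 1 match overlaps the AP-1 motif TGANTCA. Of the 10 genes, 9 had a RefSeq window and 6 of those, Gclm, Txnrd1, Srxn1, Prdx1, Slc7a11 and G6pdx, had at least 1 match; Nqo1, Gpx2 and Cat had none in theirs. Of 27025 mouse genes with a window, 30.8% had a match, and 4.68% of 32851 windows had at least 2. A match in such a window is a description of its letters, and its absence says nothing of elements outside the window.

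Most of the 10 genes were epithelial. Levels are given as CPM, the UMIs of a gene per 1000000 UMIs of the same class and library, and all intervals are 95% and cover counting error only. In the model library 8 of the 10 genes were at least 1.5-fold higher in epithelial than in immune cells and 1 was lower by that fold. In the control library 9 were higher and 1 lower. The immune level pools the UMIs of all immune classes, whose mix differed, with 277 B cells in the model library and 4 in the control library. Of all genes measured, 42.2% were that much higher in epithelial cells of the model library and 43.3% in the control library, and 24.2% and 22.1% were lower. The genes' median log2 ratio was 1.88 in the model library and 1.67 in the control library, against 0.35 and 0.39 over all genes. Between stromal and immune cells, 4 of 10 genes were higher in the model library (35.6% of all genes) and 5 of 9 in the control library (37.7% of all genes), and 0 and 1 were lower (22.3% and 20.2% of all genes).

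**Figure D1:**
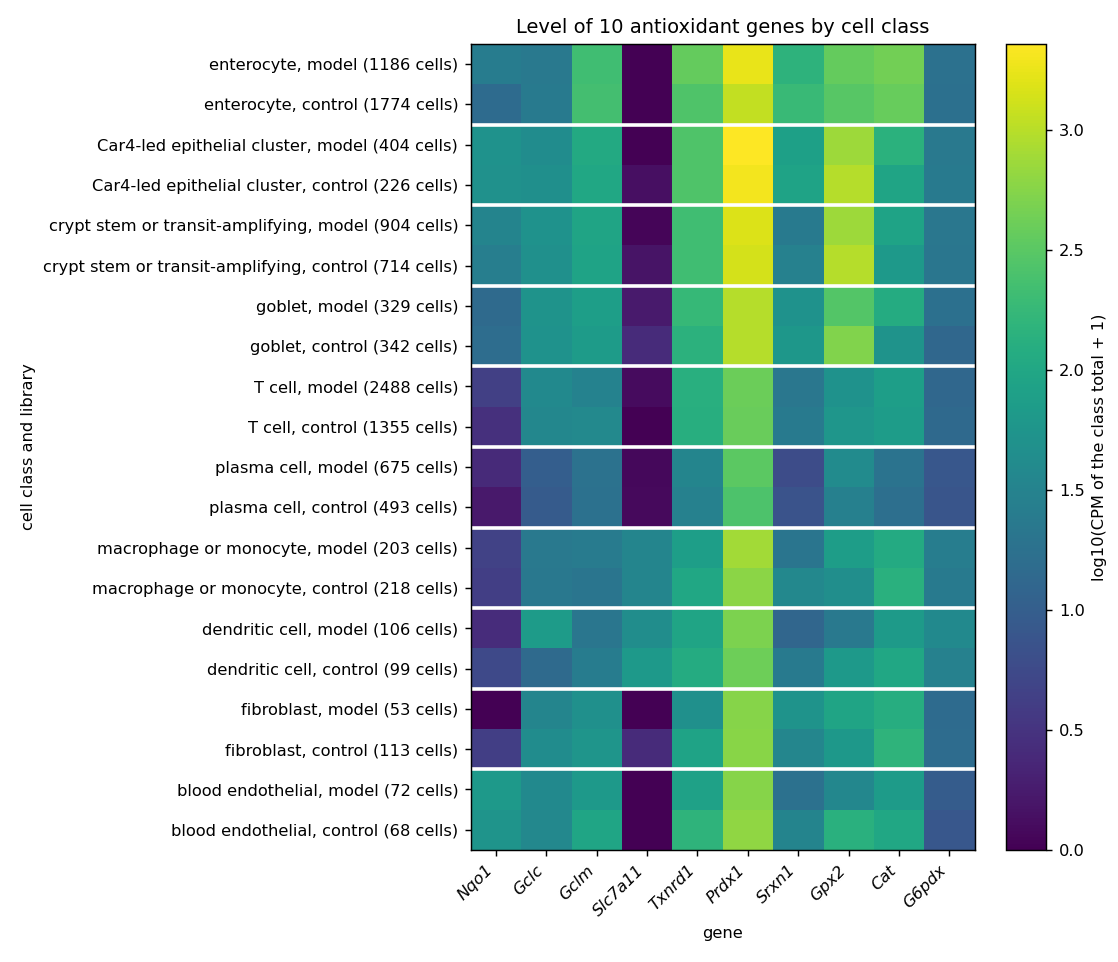
Level of each of the 10 genes (columns) in selected cell classes of the model library (upper row of each pair) and control library (lower row), as log10(CPM + 1). Some classes, among them the NK or innate lymphoid class, are not drawn. Gpx2 and Prdx1 were brightest in epithelial rows. Slc7a11 was near 0 in the rows drawn except in macrophage-like and dendritic-like cells.

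Nqo1 encodes a quinone reductase that keeps quinones from redox cycling. Its level was 31.4 CPM in epithelial cells and 2.43 CPM in immune cells of the model library, and 24.4 and 1.94 CPM in the control library, a ratio of 12.9 (9.38 to 18.2) in the model library and 12.5 (8.16 to 20.4) in the control library. Within the epithelium the Car4-led cluster was highest, at 49.8 CPM in the model library and 49.0 CPM in the control library, ahead of crypt cells at 32.1 and 26.7 CPM, whose intervals did not overlap those of the Car4-led cluster. Outside the epithelium 1 class stood apart. Blood endothelial-like cells had 64.3 CPM (36.0 to 106) from 15 UMIs in the model library and 53.25 CPM (33.4 to 80.6) from 22 UMIs in the control library, intervals that overlap those of the Car4-led cluster. A Nqo1 UMI was seen in 12.5% of 72 endothelial cells in the model library and 17.65% of 68 in the control library (median 2857 and 4532 UMIs per cell), against 0.603% of T cells in the model library and 0.517% in the control library (median 2714 and 3061 UMIs).

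Glutathione synthesis begins with glutamate-cysteine ligase, of which Gclc encodes the catalytic and Gclm the modifier subunit. The partners had different maps. Gclm was highest in enterocyte-like cells, at 213.5 CPM (205.6 to 222) in the model library and 224 CPM (215 to 233) in the control library, and was 5.33-fold and 4.89-fold higher in epithelial than in immune cells. In the control library its interval overlapped that of tuft-like cells, at 196.5 CPM (165.8 to 231). Gclc was 1.47-fold (1.33 to 1.63) and 1.90-fold (1.66 to 2.18) higher in epithelial than in immune cells. Plasma cells, part of that immune level, had 9.11 and 8.09 CPM of Gclc. The enterocyte-like level of Gclc was 21.5 CPM in the model library and 23.3 CPM in the control library. It was below that of crypt cells, 50.2 and 47.4 CPM, and of T cells, 38.3 and 34.4 CPM. The highest Gclc level of the model library was in the NK or innate lymphoid class, at 178 CPM (118 to 257) from 28 UMIs in 63 cells. In the control library the same class was highest, at 114 CPM (62.6 to 192) from 14 UMIs in 37 cells, and overlapped enteroendocrine-like cells at 109 CPM. Dendritic-like cells had 68.2 CPM (41 UMIs) in the model library and 13.3 CPM (6 UMIs) in the control library. Over 16 classes with both libraries summed, log2(CPM + 10) of Gclc and Gclm correlated at Pearson r = 0.325, while Gclm and Txnrd1 correlated at r = 0.845; classes share libraries and free RNA, so these values only describe.

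Slc7a11, the cystine importer that feeds glutathione synthesis, was the only gene of the group lower in epithelial than in immune cells of both libraries. Macrophage-like cells held 27 UMIs (32.7 CPM) in the model library and 31 UMIs (32.9 CPM) in the control library, and dendritic-like cells held 26 UMIs (43.3 CPM) and 29 UMIs (64.2 CPM). A UMI was seen in 8.37% of macrophage-like cells of the model library and 9.63% of the control library, and in 11.3% and 13.1% of dendritic-like cells. Among enterocyte-like cells it was seen in 0 of 1186 in the model library and 0 of 1774 in the control library, which allows a share of cells with a UMI of up to 0.253% and 0.169% (3 counts of the cells) and does not limit the share of cells expressing the gene. Among T cells, 2 UMIs were found in the model library and 0 in the control library. Macrophage-like cells had a median of 3340 UMIs in the model library and 4072 in the control library, and enterocyte-like cells 7474 and 4341, so the class at 0 was the deeper one. The genes whose levels were most like it over the 16 classes were Il22ra2 (r = 0.997), Pilra (r = 0.991) and Il1r2 (r = 0.990), the highest among all genes compared.

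The thioredoxin branch was higher in the epithelium. Txnrd1, the cytosolic thioredoxin reductase, was 3.05-fold (2.89 to 3.23) higher in epithelial than in immune cells of the model library and 2.68-fold (2.50 to 2.87) in the control library. Prdx1, a thioredoxin-dependent peroxidase, was 4.11-fold and 3.61-fold higher, with its highest level in the Car4-led cluster, at 2273 CPM in the model library and 2005 CPM in the control library. Srxn1 was 5.18-fold and 4.88-fold higher, and its highest level was in enterocyte-like cells, at 148 CPM (141.5 to 155) in the model library and 187 CPM (179 to 195) in the control library. Crypt cells had 23.2 CPM of Srxn1 in the model library and 28.7 CPM in the control library, while they had 1523 and 1386 CPM of Prdx1, so the enzyme and its repair partner were ordered differently across the epithelium.

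Gpx2 and Cat, both peroxide-removing, divided the epithelium. Gpx2 reached 726 CPM in the Car4-led cluster and 726 CPM in crypt cells of the model library, and 964 and 962.5 CPM in the control library; in each library those classes did not differ beyond counting error. A Gpx2 UMI was seen in 98.02% of Car4-led and 94.1% of crypt cells in the model library, and in 97.8% and 97.1% in the control library, against 6.35% of T cells in the model library and 7.82% in the control library. The median depth was 17125 and 15824 UMIs against 2714 in T cells of the model library, and 18586 and 16682 against 3061 in those of the control library. Cat, the peroxisomal catalase, was highest in enterocyte-like cells, at 434 CPM (422 to 445) in the model library and 381 CPM (369 to 392.5) in the control library, against 88.1 and 64.9 CPM in crypt cells. In goblet-like cells Gpx2 was unevenly spread: 17 of 329 cells held 50% of its UMIs in the model library, and 13 of 342 in the control library. This was not particular to Gpx2. In the same class 23 model and 15 control cells held 50% of the Prdx1 UMIs, and 21 and 17 held 50% of the Cat UMIs. G6pdx, which starts the pentose phosphate route to NADPH, had 19.0 CPM in epithelial and 12.0 CPM in immune cells of the model library. In the control library it had 18.3 and 11.9 CPM. The ratio was 1.58 (1.35 to 1.86) in the model library and 1.53 (1.27 to 1.86) in the control library. By class G6pdx was highest in dendritic-like cells, at 38.3 CPM (24.3 to 57.4) from 23 UMIs in the model library. They had 28.8 CPM (15.3 to 49.2) from 13 UMIs in the control library. Both intervals overlapped those of the Car4-led cluster, at 21.9 CPM (19.1 to 25.1) and 23.5 CPM (19.6 to 28.0). Macrophage-like cells had 25.4 and 23.3 CPM. Plasma cells, part of the immune level, had 7.08 and 6.70 CPM. The genes most like Gpx2 over the 16 classes were Ap1m2 (r = 0.974), Dnajc22 (r = 0.9685) and Klf5 (r = 0.966), and those most like Cat were Por (r = 0.926), Mapk1ip1l (r = 0.914) and Fbxl5 (r = 0.903).

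**Figure D2:**
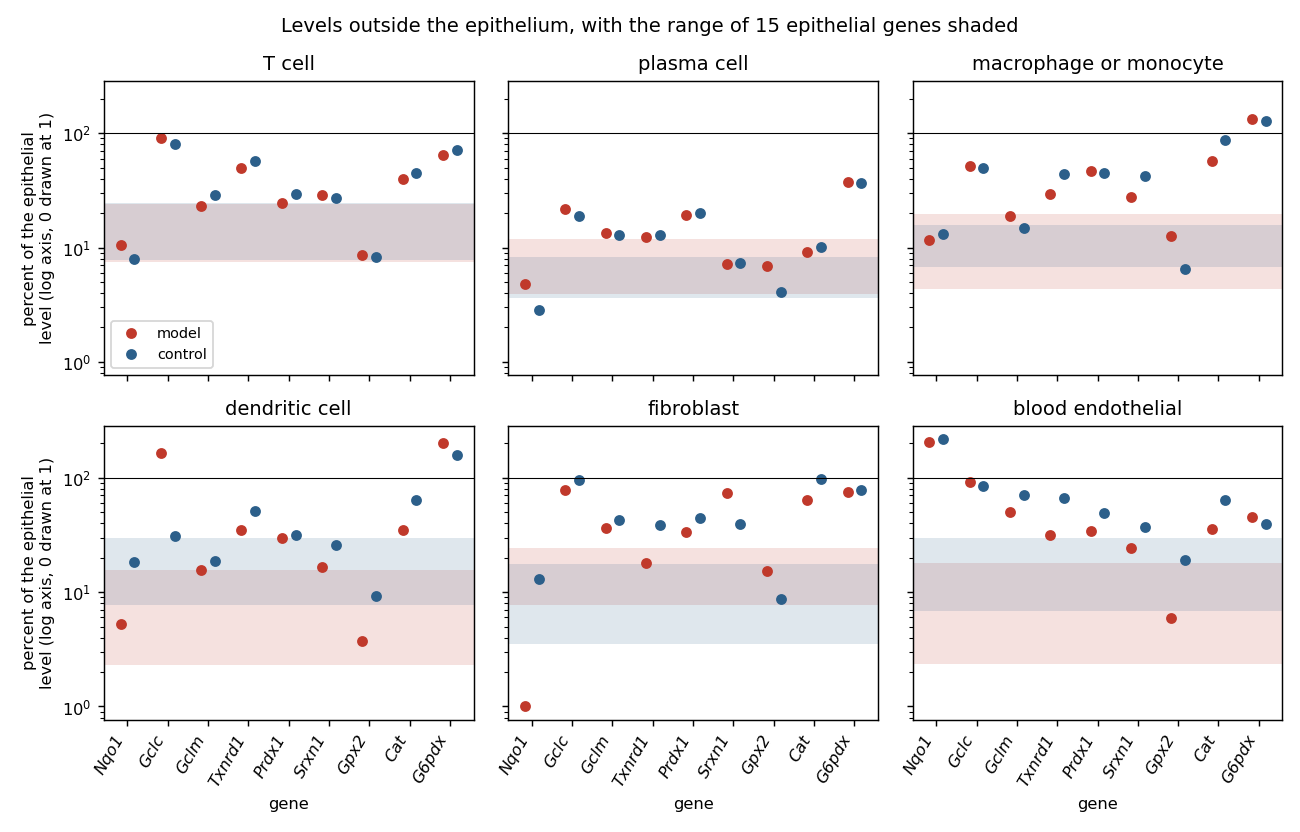
Level of 9 genes in 6 non-epithelial classes as a percentage of the epithelial level of the same library (log axis, values of 0 drawn at 1); shaded bands span the same percentage for 15 epithelial genes in the model library (red) and control library (blue), and the line marks 100%. Gpx2 lay in the bands or at most slightly below them in these classes, while Nqo1 in blood endothelial-like cells lay above 100%.

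Free RNA from broken epithelial cells gives a low level of epithelial transcripts in every droplet, so each gene's immune level was set beside 15 epithelial genes, among them Fabp1, Epcam and Krt8. Those genes stood at 5.70% to 18.6% of their epithelial level in immune cells of the model library (median 8.46%) and at 6.59% to 17.4% in the control library (median 9.76%). Gpx2, at 7.67% in the model library and 7.68% in the control library, and Nqo1, at 7.77% and 7.97%, lay inside these ranges, so their immune levels are not read as expression by immune cells; the part of free RNA in them was not tested. Gclc stood at 68.1% and 52.6%, G6pdx at 63.1% and 65.4%, Txnrd1 at 32.8% and 37.3%, Cat at 30.3% and 35.9%, and Prdx1 at 24.3% and 27.7%, all above the ranges. Srxn1 (19.3% and 20.5%) and Gclm (18.8% and 20.45%) lay just above them. Of the Gpx2 UMIs in T cells, 50% came from 11 of 2488 cells in the model library and 7 of 1355 in the control library. Doublets could not be called in these libraries, and their part in such cells was not tested. The T cell class includes a cluster of 52 model and 38 control cells with a median of 6621 UMIs. That cluster passed 8 of 11 T cell markers and also 7 enterocyte markers, and it is part of the T cell and immune levels given. Nqo1 in blood endothelial-like cells stood at 205% of the epithelial level in the model library and 218% in the control library.

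Along the villus the genes ran in opposite directions. Enterocyte-like cells of both libraries were ranked by the share of a villus tip score in the sum of tip and bottom scores. They were then cut into 5 bins from bottom to tip. The tip score used Ada, Nt5e and 7 others, and the bottom score Reg3g, Reg3b and 7 others. For each score, a gene's share of a cell's UMIs was divided by its mean over these cells. These values were capped at 5 and summed, so that each gene had a like weight. The bins are a range and not cell types: 470 of 2960 cells lay within 0.02 of a limit. Between the tip and the bottom bin, 2 of 9 measured genes, Srxn1 and Gclc, were at least 1.5-fold higher in both libraries and 5, Gpx2, Prdx1, Nqo1, G6pdx and Txnrd1, were lower. Of all genes measured, 16.7% in the model library and 16.1% in the control library were that much higher at the tip, and 51.6% and 51.5% were lower. The median log2 ratio of the genes was -0.77 in the model library and -0.89 in the control library, against -0.64 and -0.63 over all genes, so the share of the 9 genes that was lower is near the background.

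Gpx2 had 530 CPM in the bottom bin, then 278, 184, 109 and 46.8 CPM in the tip bin of the model library, and 676, 358.5, 213, 119 and 41.7 CPM in the control library. It declined at every step in both. The tip over bottom ratio was 0.0883 (0.0624 to 0.121) in the model library and 0.0617 (0.0481 to 0.0781) in the control library, and 2.67% and 1.18% of all genes had a lower one. Prdx1 also declined at every step, with 2227, 1703, 1141, 819.9 and 293 CPM in the model library and 1894, 1522, 922, 626 and 321 CPM in the control library, a ratio of 0.132 (0.115 to 0.150) and 0.169 (0.155 to 0.185).

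Srxn1 went the other way. It had 121, 147, 185, 169.5 and 269.7 CPM from bottom to tip in the model library and 154, 142, 160.5, 218 and 294 CPM in the control library, with a ratio of 2.22 (1.90 to 2.59) in the model library and 1.92 (1.67 to 2.20) in the control library. Of all genes, 91.4% and 88.7% had a lower ratio. Gclc was higher at the tip by 1.51 (0.940 to 2.32) in the model library and by 1.83 (1.22 to 2.76) in the control library. The interval in the model library includes 1.

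Cat and Gclm were highest in the middle of the villus. Cat had 366, 545, 549.7, 457 and 267 CPM from bottom to tip in the model library and 306, 433, 506, 398 and 230 CPM in the control library. Gclm had 163, 251.5, 317, 274.5 and 199.5 CPM in the model library and 165, 201, 284.5, 275 and 199 CPM in the control library. For both genes the third bin was above the first and the last in each library, with intervals that did not overlap. Txnrd1 had tip over bottom ratios of 0.586 (0.503 to 0.678) in the model library and 0.452 (0.393 to 0.518) in the control library. Relative to the median gene its log2 ratio was -0.13 in the model library and -0.51 in the control library. Of all genes, 45.9% and 35.0% had a lower ratio.

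**Figure D3:**
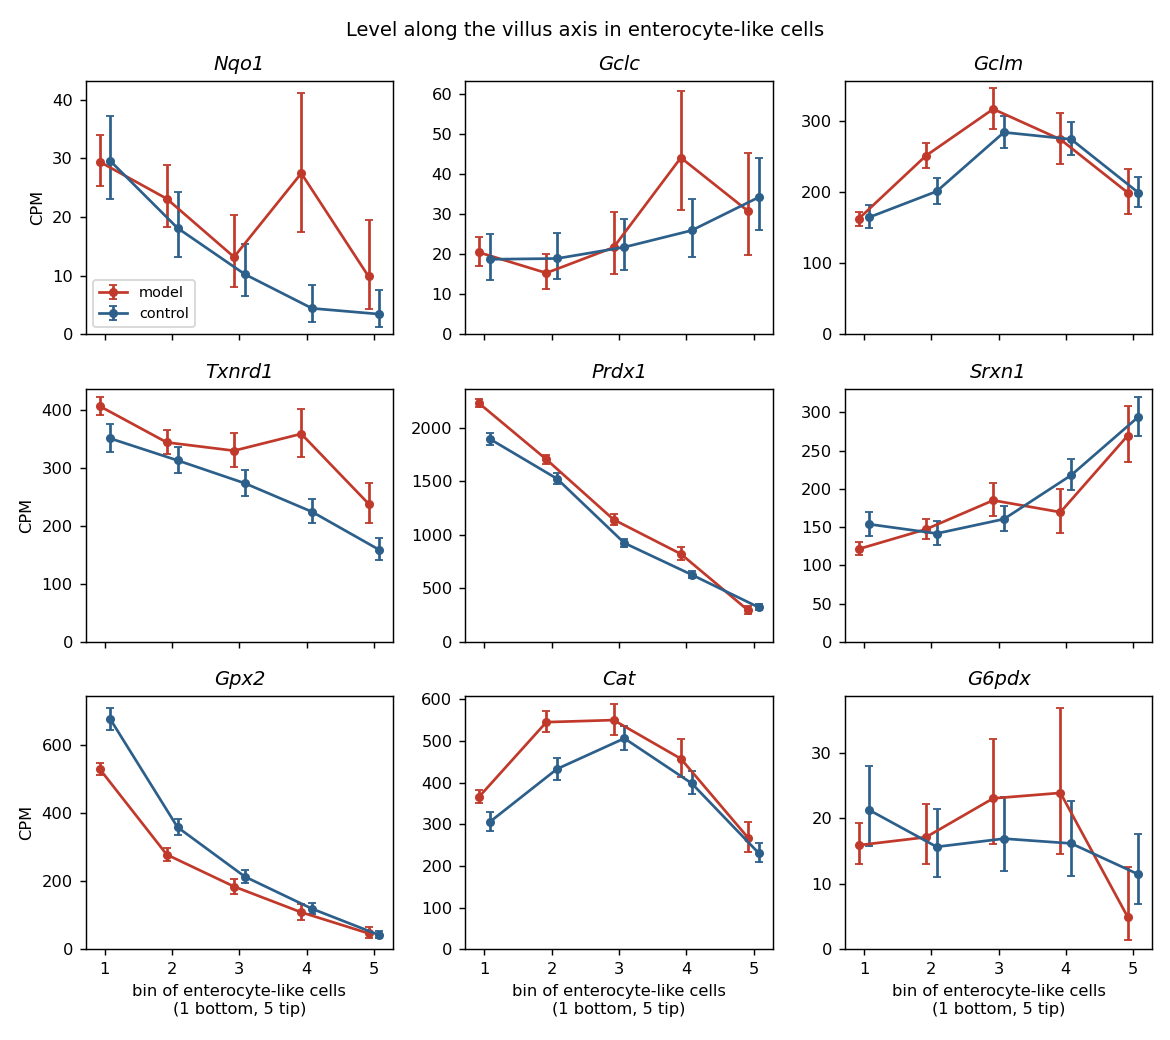
CPM of 9 genes in 5 bins of enterocyte-like cells from the villus bottom (1) to the tip (5), in the model library (red) and control library (blue); bars are 95% Poisson intervals (counting error). Gpx2 and Prdx1 declined toward the tip, Srxn1 climbed, and Cat and Gclm peaked in the middle, in both libraries.

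Most of the rest of the pathway was lower at the tip. Of 54 other genes of the pathway, 45 were measured in these bins of the model library and 42 in the control library; 35 and 32 were lower at the tip and 4 in each were higher, with median log2 ratios of -1.73 and -1.77. Of all genes 51.6% in the model library and 51.5% in the control library were lower and 16.7% and 16.1% higher, with medians of -0.64 and -0.63. The 4, named after their values were seen, all belong to the list of regulators. Bach1, the repressor, had 245 CPM at the tip and 49.4 CPM at the bottom in the model library, and 241 and 80.4 CPM in the control library. Maff and Mafk, small MAF proteins that pair with NRF2 or BACH1, had tip over bottom ratios of 2.77 and 1.64 in the model library and 2.94 and 1.60 in the control library, and Sqstm1, an autophagy adaptor that binds KEAP1, had 1.91 in the model library and 2.08 in the control library. Nfe2l2 itself was lower at the tip, with 89.9 CPM against 389 CPM at the bottom in the model library and 78.9 against 326.5 CPM in the control library. The lowest ratios were those of Gsta1 (0.00197 in the model library and 0.00479 in the control library) and Gsta4 (0.0250 and 0.0355), glutathione transferases, although reads of Gsta1 may be shared with its near-identical copy Gsta2.

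Between the libraries, 7 cell classes held at least 100 cells in each and were compared. In enterocyte-like cells the class as a whole showed 2 of 9 measured genes at least 1.5-fold higher in the model library, Nqo1 and Prdx1, and 0 lower, where 17.7% of all 10084 genes were higher and 9.53% lower. The genes' median log2 ratio was 0.19 against 0.11 over all genes. Nqo1 had 24.5 CPM (315 UMIs) in the model library and 14.1 CPM (153 UMIs) in the control library, a ratio of 1.74 (1.43 to 2.13). Prdx1 had 1749 CPM in the model library and 1118 CPM in the control library, a ratio of 1.56 (1.53 to 1.60), and Txnrd1 had 367 and 271 CPM, a ratio of 1.35 (1.29 to 1.42).

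The enterocyte-like class was not made of the same cells in each library. Of its cells, 603 of 1186 in the model library lay in a cluster led by Fabp1 and Gsta1, which held 176 of 1774 in the control library, while 786 control cells and 90 model cells lay in one led by Plb1 and Slc34a2. The bottom bin held 384 model and 208 control cells, and the tip bin 166 and 426. Values within a bin or a cluster are therefore given beside the pooled ones. Within bins 1 to 5, from bottom to tip, the Prdx1 ratio was 1.18, 1.12, 1.24, 1.31 and 0.914, and within the 4 clusters of the class it was 1.00, 0.778, 0.787 and 0.651. Gpx2 turned: it was 1.21-fold (1.16 to 1.26) higher in the class as a whole, while its ratio was 0.7845, 0.775, 0.864, 0.913 and 1.12 in bins 1 to 5 and 0.967, 0.613, 0.394 and 0.459 in the 4 clusters. Giving each bin the same weight, a choice made after the data were seen, left a log2 ratio of -0.30 for Gpx2, 0.23 for Prdx1 and 0.65 for Nqo1.

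Cat and Txnrd1 kept a ratio above 1 in all 5 bins. The Cat ratio was 1.20, 1.26, 1.09, 1.15 and 1.16 from bottom to tip, with an interval that excluded 1 in bins 1, 2 and 4. The Txnrd1 ratio was 1.16, 1.10, 1.21, 1.60 and 1.502, with intervals that excluded 1 in all 5. Cat did not hold within clusters, where its ratio was 0.962, 0.929, 1.07 and 1.17. The Txnrd1 ratio within clusters was 1.045, 1.16, 1.21 and 1.56. Its interval included 1 in the first cluster (0.979 to 1.12) and the third (0.969 to 1.51). For Nqo1 the ratio was 0.995, 1.28, 1.29, 6.23 and 2.87 from bottom to tip, with an interval that excluded 1 in bin 4 alone (2.78 to 15.3), which rests on 23 model and 9 control UMIs. Within the 4 clusters it was 0.835 (0.663 to 1.06), 1.62, 4.46 and 5.90, the first being the cluster with most of the model cells. Mitochondrial share moved with the Nqo1 result: among enterocyte-like cells with at most 10% mitochondrial UMIs the Nqo1 log2 ratio was -0.0091. Prdx1 did not pass 1.5-fold under that limit either.

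In the Car4-led cluster and in crypt cells Gpx2 was lower and Cat higher in the model library. Gpx2 had 726 CPM in the model library and 964 CPM in the control library in the Car4-led cluster, a ratio of 0.754 (0.727 to 0.781), and 726 and 962.5 CPM in crypt cells, a ratio of 0.755 (0.737 to 0.772). Cat had 137 and 90.6 CPM in the Car4-led cluster, a ratio of 1.52 (1.37 to 1.69), and 88.1 and 64.9 CPM in crypt cells, a ratio of 1.36 (1.25 to 1.47). Past 1.5-fold, 1 of 9 genes (Cat) was higher and 0 lower in the Car4-led cluster, where 2.62% of all genes were higher and 3.95% lower. That call was lost, at log2 ratios of 0.54, 0.51 and 0.58, with at most 10% mitochondrial UMIs, with the mean of single cells' CPM and with scaling without mitochondrial, ribosomal and immunoglobulin genes. In crypt cells 0 were higher and 0 lower, where 2.04% and 3.7% of all genes were. Srxn1 had a ratio of 0.807 (0.706 to 0.924) in crypt cells, and the other crypt ratios ran from 0.980 for Txnrd1 to 1.20 for Nqo1.

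In goblet-like cells Gpx2 was also lower and Cat higher in the model library. Gpx2 had 283 CPM (1101 UMIs) in the model library and 523 CPM (2358 UMIs) in the control library, a ratio of 0.541 (0.503 to 0.582). Cat had 114 CPM (443 UMIs) and 52.3 CPM (236 UMIs), a ratio of 2.18 (1.85 to 2.56). These were the 2 of 9 genes past 1.5-fold, 1 higher and 1 lower, where 5.68% of all genes were higher and 6.61% lower. A Gpx2 UMI was seen in 38.0% (32.7 to 43.5) of goblet-like cells in the model library and 36.0% (30.9 to 41.3) in the control library, and in 11.9% and 14.7% after thinning to 1000 UMIs per cell, which left out 9 and 35 shallower cells. Without the 8% of cells with the highest doublet scores the log2 ratio was -0.50 for Gpx2 and 0.82 for Cat. As the mean of single cells' CPM, which weights cells equally, Gpx2 had a log2 ratio of -0.51 and Cat of 0.49, against -0.89 and 1.12 for summed UMIs, and neither then passed 1.5-fold. On that scale Gpx2 had -0.41 in the Car4-led cluster and -0.38 in crypt cells, and Cat had 0.51 and 0.53, so goblet-like cells did not stand apart for Cat.

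**Figure D4:**
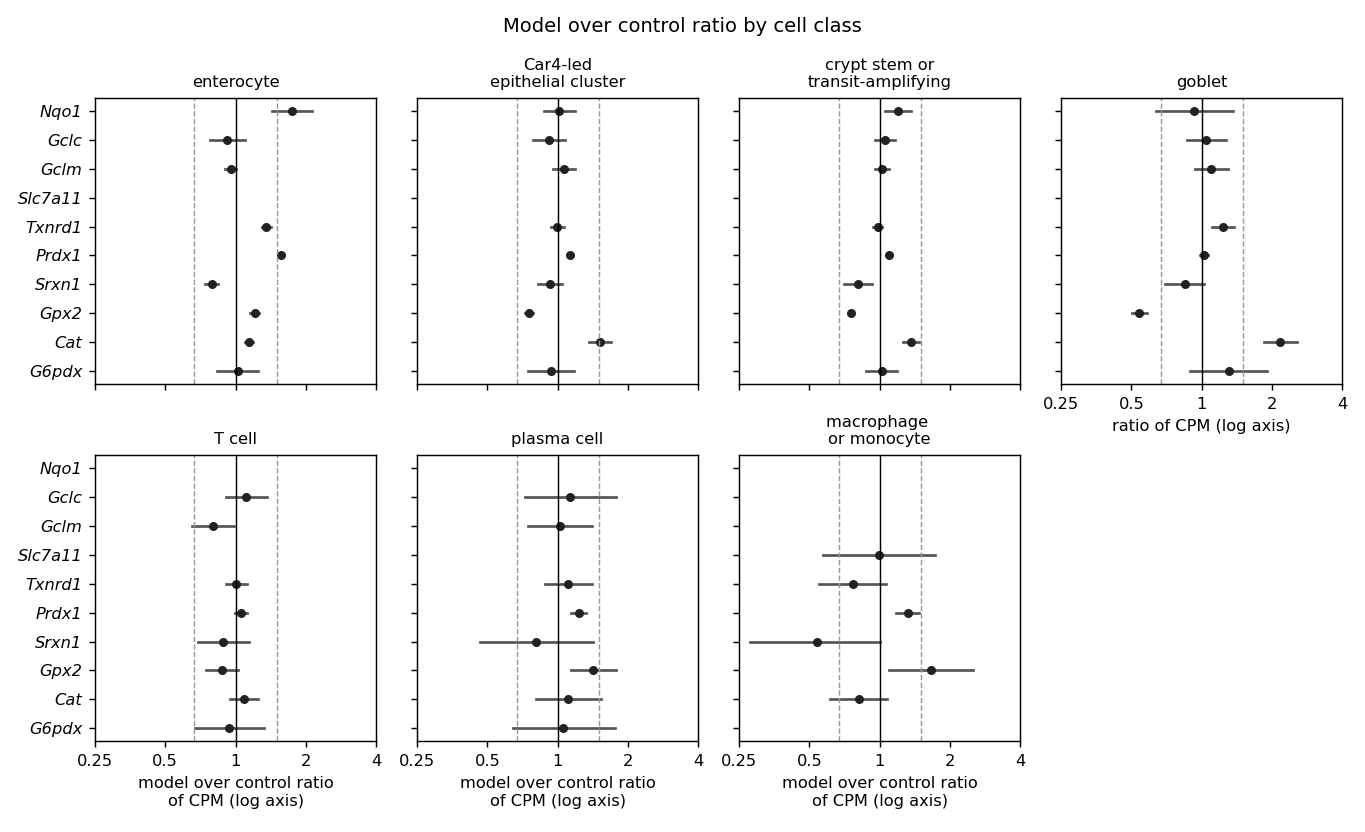
Model over control ratio of CPM (log axis) for each gene in 7 cell classes, with 95% exact binomial intervals (counting error); dashed lines mark 1.5-fold in either direction, and genes with under 50 UMIs are left out. Gpx2 lay below 1 and Cat above 1 in the Car4-led cluster, crypt and goblet-like cells.

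Among the immune classes compared, only macrophage-like cells had a gene past 1.5-fold. In T cells 0 of 8 measured genes passed 1.5-fold in either direction (2.23% of all genes were higher and 3.87% lower), with log2 ratios from -0.32 to 0.15. In plasma cells 0 of 8 did (6.45% higher and 3.76% lower), with log2 ratios from -0.30 to 0.51. In macrophage-like cells 1 of 6 measured, Gpx2, was higher (9.29% of all genes) and 1, Srxn1, was lower (6.64% of all genes). Neither was called after thinning to 1000 UMIs, without the 8% of cells with the highest doublet scores, with cells named by their own markers, or without the 3 cells with the most UMIs of the gene. Too few UMIs were then left for a ratio, except for Gpx2 with cells named by their own markers (log2 ratio 0.475). Srxn1 had 16 UMIs (19.4 CPM) in the model library and 34 UMIs (36.1 CPM) in the control library, a ratio of 0.537 (0.277 to 1). Slc7a11 had a ratio of 0.995 (0.571 to 1.72), and a difference within that interval was not detectable at this depth.

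Of the other genes of the pathway in enterocyte-like cells, 21 of 47 measured were higher and 3 lower in the model library, with a median log2 ratio of 0.52; of all genes 17.7% were higher and 9.53% lower, with a median of 0.11. The highest were Gsta4 with a ratio of 3.05 and Gsta1 with 2.62, and the lowest were Gpx3, a secreted glutathione peroxidase, with 0.376 and Bach1 with 0.536. Among regulators Nfe2l2 had 312 CPM in the model library and 202 CPM in the control library. All of these stand in the class whose makeup along the villus differed, and Gsta4 and Gsta1 had the steepest gradients from bottom to tip. In the Car4-led cluster 4 of 48 were higher and 0 lower, in crypt cells 1 of 48 and 0, and in goblet-like cells 8 of 46 and 2, with median log2 ratios of 0.07, 0.12 and 0.03. Of all genes 2.62% were higher and 3.95% lower in the Car4-led cluster, 2.04% and 3.7% in crypt cells and 5.68% and 6.61% in goblet-like cells, so the crypt count of higher genes is at the background. In the Car4-led cluster the lowest ratios were those of Bach1 (0.703, 0.620 to 0.798) and Sqstm1 (0.737), and the highest Gsta4 (2.215) and Gstm1 (1.89). In crypt cells they were Bach1 (0.749, 0.684 to 0.822) and Abcc1 (0.7915), and Gsta1 (1.625) and Gstm1 (1.45). In goblet-like cells they were Chac1 (0.518) and Abcc1 (0.579), and Gsta1 (2.56) and Abcc2 (2.04), with Bach1 at 0.786 (0.674 to 0.916). Bach1 had 1.14 (0.916 to 1.42) in T cells and 1.10 (0.783 to 1.56) in plasma cells.

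In macrophage-like cells 7 of 36 measured genes of the pathway list were higher and 4 lower in the model library, with a median log2 ratio of 0.13; of all genes 9.29% were higher and 6.64% lower, with a median of 0.05. Gsr, which regenerates reduced glutathione, had 410.5 CPM in the model library and 189.8 CPM in the control library, and Prdx6, a peroxiredoxin that uses glutathione, had 185 and 85.9 CPM. The lowest ratios were those of Gstm1, a glutathione transferase, at 0.476 (0.242 to 0.891) and of Bach1 at 0.5655 (0.443 to 0.719). Nfe2l2 had 401 CPM in the model library and 541 CPM in the control library. In T cells 2 of 46 genes of the list were higher and 1 lower (2.23% and 3.87% of all genes), and in plasma cells 3 of 42 were higher and 2 lower (6.45% and 3.76% of all genes), counts near those backgrounds.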

How the data were processed

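The authors deposited whole-number UMI counts per gene and barcode, not normalised, 1 matrix per library. Per the file headers the counter was Cell Ranger 7.0.1; the submitters' processing notes give version 4.0, with GRCm39 as the build. The annotation, the chemistry and whether intronic reads were counted were not given in the sources used here. A barcode was kept from 500 UMIs and 200 genes upward, with a mitochondrial share of up to 25%. Scrublet called 0 kept cells in either library and so did not work; no doublets were removed. The libraries shared 28 barcodes, 12 of them kept.

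Counts scaled to 10000 per cell and log-transformed gave 2000 variable genes, without the 10 genes and the other pathway genes, immunoglobulin, T cell receptor, mitochondrial and ribosomal genes, then 30 principal components, 15 neighbours and Leiden clusters at resolution 1 (scanpy 1.11.5, igraph 0.11.9, scikit-learn 1.9.0), named from markers; names rest on transcripts alone. UMIs were summed per library and class. CPM carry exact Poisson, ratios exact binomial and shares exact Clopper-Pearson 95% intervals (scipy 1.17.1), and a count of 0 was set at 3 UMIs. Ratios need 50 UMIs over both sides, except model over control ratios within a bin or a cluster. The ratio code was tested on simulated data. No test was made, since each group is 1 library, and comparisons took classes of at least 100 cells in each library. Alternatives changed the filters, scaling, depth, weighting and naming of cells. Described were all 10 genes, counts over the pathway list with its 2 highest and 2 lowest ratios, and the 3 genes most like a gene over classes of at least 50 cells. The genes and lists were chosen with earlier results of these data known.

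Promoter windows are RefSeq's on GRCm38.p6, another build than the counts, so no other coordinates are given.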

Additional observations from a re-analysis of the deposited data

Results flagged for a closer look

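The model over control ratio of Gpx2 ran in opposite directions in macrophage-like and goblet-like cells, at 1.66 (1.10 to 2.52) in macrophage-like cells (73.9 CPM in the model library and 44.5 CPM in the control library) and 0.541 in goblet-like cells. With 1 library per group this difference was not tested. The macrophage-like value rests on 61 UMIs in the model library, 21 of them in 1 cell, and 42 in the control library, and it lay at 12.7% and 6.43% of the epithelial level, where 15 epithelial genes ran from 4.335% to 19.7% and from 6.705% to 15.6%. Without the 3 cells of each library with the most Gpx2 UMIs too few UMIs were left for a ratio. The part of free RNA in it was not tested.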

How the results depend on the processing

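No paired analysis was possible because each group has 1 library, and the libraries share only the replicate number 1; none could be left out. Counts are of genes past 1.5-fold in the model library. The counts between compartments and along the villus, and all median log2 ratios, held under the alternatives run. A count held if within 1.5 times its value, and a gene's ratio if inside its counting interval. A median held if inside an interval from the order of the genes' values. With at most 10 genes that interval is wide, so a median that held says little. In macrophage-like cells it was the whole range of the genes (log2 ratio -0.896 to 0.73), and in enterocyte-like cells it ran from -0.12 to 0.65. In all 194 counts and medians held and 32 did not, and of single genes' ratios 396 held, 137 moved and 2 that had passed 1.5-fold changed sign. Among cells with at most 10% mitochondrial UMIs 0 genes were higher in enterocyte-like cells and in the Car4-led cluster and 0 lower in macrophage-like cells, and Nqo1 showed about no difference in enterocyte-like cells (log2 ratio -0.0091). Within the Plb1-led cluster 1 gene was higher and 1 lower in enterocyte-like cells, and Prdx1 changed sign (log2 ratio -0.35); within the larger plasma cell cluster 1 was higher. In enterocyte-like cells 1 gene was higher after division by the median ratio, with villus bins weighted equally (added after the data were seen) and after thinning to 1000 UMIs. Thinning, which leaves fewer genes measured, gave 2 higher in the Car4-led cluster, 1 higher in crypt cells, 1 lower in T cells, and 0 higher and 0 lower in goblet-like and macrophage-like cells. The mean of single cells gave 0 higher in the Car4-led cluster, 0 higher and 0 lower in goblet-like cells, 1 lower in plasma cells and 2 lower in macrophage-like cells. Scaling without mitochondrial, ribosomal and immunoglobulin genes gave 0 higher in the Car4-led cluster. At least 1000 UMIs per cell gave 0 higher in macrophage-like cells. Without the 8% highest Scrublet scores 0 were lower in goblet-like cells and 0 higher and 0 lower in macrophage-like cells. Naming each cell by its own markers gave 1 lower in plasma cells and 0 higher and 0 lower in macrophage-like cells. Without the 3 cells with the most UMIs of a gene 2 were higher in goblet-like cells, and 0 were higher and 0 lower in macrophage-like cells. Where no value or construction above shows it, the cause was not tested. Macrophage-like cells, at under 100 UMIs for most genes, and the tip bins are limited by depth.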
